A study of Mus musculus with 24 samples.

Results

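The last day of culture of Arpc4 KO bone marrow-derived dendritic cells (BMDC) was examined by comparing 3 bulk RNA-seq libraries of day 10 with 3 of day 9, which are 6 of the 24 libraries of the series. They were chosen by their genotype and day labels, and all genes with enough counts were tested. KO cells carried the genotype ARPC4 Flox/Flox CD11c-Cre +/-, and WT cells, at the same days, ARPC4 Flox/Flox CD11c-Cre -/-, so both genotypes held the floxed alleles and differed by the Cre. Marrow came from mice of both sexes, aged 8 to 10 weeks, and was grown with granulocyte-macrophage colony-stimulating factor (GM-CSF) from transfected J558 cells, the cultures were replated in fresh medium on days 4 and 7, and only cells in suspension were taken, of which over 90% were CD11c+ per the labels. The series follows the differentiation of both genotypes over days 7, 8, 9 and 10 and treats day 10 as the end state; the comparison here asks what still changes in KO cells between the last of these days. Cre is driven by the CD11c promoter, so deletion can begin only in cells that have started to use that promoter, and counts per gene do not show which exons were lost. Each library is labelled with a mouse number (64, 67 and 68 for KO on each day), and p-values here measure the spread between such libraries. Values of KO libraries are always given in the order 64, 67, 68.

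The Arp2/3 complex nucleates branched actin networks, and Arpc4 is one of its structural subunits. GM-CSF cultures of marrow yield a mixture of dendritic-like and macrophage-like myeloid cells with few other leukocytes, and the cells keep dividing for part of the culture. Signals through NF-kB and through the ERK kinases sustain short-lived transcripts of chemokines, immediate early factors and feedback inhibitors, while growth factors and Myc sustain the nucleolar machinery that builds ribosomes.

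Arpc4 itself (ENSMUSG00000079426.13, chr6:113378115-113390448, plus strand) was read at 199, 201 and 204 CPM (counts scaled to library size) in KO cells on day 9 and at 185, 184 and 173 CPM on day 10. The days did not overlap, but the difference did not pass edgeR's quasi-likelihood test (log2 fold change -0.16, SE 0.07, Benjamini-Hochberg adjusted p = 0.353 against a threshold of 0.05). WT libraries of the same days lay higher, at 228 ± 9.69 CPM on day 9 and 220 ± 18.9 CPM on day 10 (mean ± SD, n = 3 each). The difference of KO from WT did not pass the same test on day 9 (log2 fold change -0.18, adjusted p = 0.433) or on day 10 (-0.28, adjusted p = 0.225). The same-strand neighbour Ttll3 overlaps the end of Arpc4 and held counts equal to 10.3% of those of Arpc4.

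In KO cells the mouse numbers and the expression data did not match across days, so labels or libraries may have been exchanged between days, which was not tested. Ddx3y, a Y-linked RNA helicase, was read at 63.2 CPM in library 64 of day 9 and at 59.6 CPM in library 67 of day 10, and at 0 in the other 4 libraries; on days 7 and 8 the high library was number 64 and number 68. Xist, the transcript of the inactive X chromosome, was read at 649 to 767 CPM in those 4 and below 1 CPM in the first 2. Both high-Ddx3y libraries also stood at the same end of the first principal component, which held 53.5% of the variance among the 6 libraries, at -42.8 and -29.8 against -6.98 to 42.0 for the rest. Days were compared without pairing, and results are also given with a term for the high-Ddx3y libraries of each genotype, which was added once the data had been seen. The labels name 2 stranded library kits without saying which library used which, so a kit cannot be told apart from the groups.

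Depth was 28210108 to 31049798 counts per library in the 6 KO libraries (19952047 to 31049798 in the series), and mitochondrial counts made up 2.15%, 1.72% and 1.97% on day 9 and 2.24%, 2.28% and 2.21% on day 10. This share was higher in every day 10 library, and its part in the results was not tested. Of the markers of the labelled cell type, Itgax, which encodes CD11c, stood at 1287, 1013 and 1270 CPM on day 9 and at 924, 1610 and 1164 CPM on day 10. Csf1r, the receptor for macrophage colony-stimulating factor, stood at 883 to 974 CPM. Zbtb46, a transcription factor of conventional dendritic cells, was low and uneven at 5.10 to 23.7 CPM. Of the lymphoid markers, 15 of 22 had enough counts to be tested, with summed levels of these 15 at 187 to 194 CPM on day 9 and 167 to 185 CPM on day 10. Bst2, which plasmacytoid dendritic cells express and interferon induces in other cells, stood at 86.3 to 134 CPM, lower on day 10 without overlap (log2 fold change -0.30, adjusted p = 0.202). Ighm, the immunoglobulin mu heavy chain, stood at 17.9, 18.6 and 21.8 CPM on day 9 and at 33.6, 20.3 and 31 CPM on day 10 (0.54, adjusted p = 0.178), and Gzma was at 0 in all 6 libraries. The part of such cells in the results was not tested.

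Few single genes passed the test. Of 14535 genes tested with edgeR's quasi-likelihood test (all 24 libraries, Benjamini-Hochberg adjusted p under 0.05), 14 were called between KO day 9 and day 10, or 0.0963%. Of these, 5 rose (0.0344%) and 9 fell (0.0619%). At an unadjusted p under 0.05 there were 1738 of the 14535 genes (12%), the background for the counts of list members at that level given further on. The DESeq2 Wald test called 207 of the 14535 genes (80 higher, 127 lower), the background for its counts of list members. Among the 14 edgeR calls, those higher on day 10 were Cyp1b1, Slc46a3, Ypel3, Man2a2 and Fbxl20. Lower were the chemokine gene Cxcl2, the ERK phosphatase gene Dusp6, the ribosome biogenesis genes Gpatch4, Rrs1, Ebna1bp2 and Mybbp1a, and Nrgn, Akr1c18 and Gm48786. In each of the 14 the 3 libraries of day 10 lay apart from the 3 of day 9, which was also true of 818 genes in the higher direction (5.63%) and 1067 in the lower (7.34%). An exact permutation test of 3 libraries against 3 cannot go below p = 0.1, so for single values the non-overlap is a description.

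How many genes passed depended on single libraries. Without library 67 of day 10, 1 of the high-Ddx3y libraries, 470 genes were called, 218 of them higher, and all 14 were among them. Without library 67 of day 9 there were 7 calls, and without library 68 of day 9 there was 1. Leaving out library 64 of day 9, library 64 of day 10 or library 68 of day 10 left 0 calls by edgeR, with 1201, 1503 and 972 genes at an unadjusted p under 0.05. Without both high-Ddx3y libraries 62 genes were called. A fit with the high-Ddx3y term called 203 genes, 96 higher (0.66%) and 107 lower (0.736%), and all 14 were among these too. The 14 genes kept their direction in every alternative tried, and each kept its call in 7 to 12 of 15 or 16 of them.

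**Figure D1:**
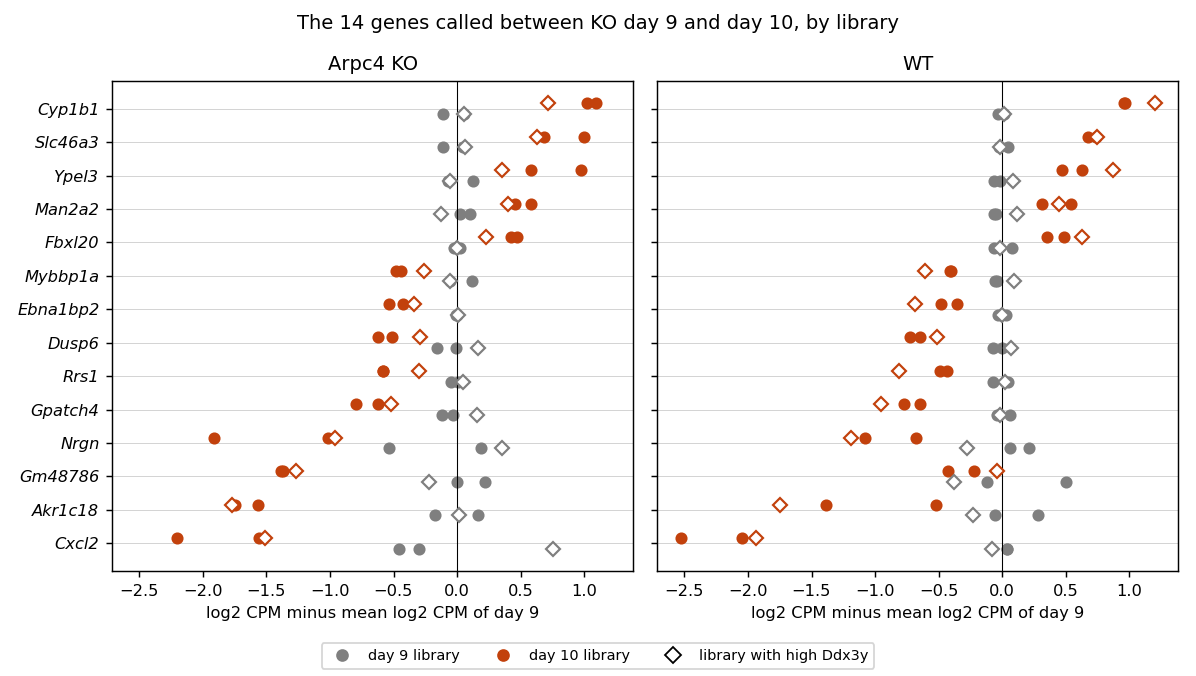
Each point is 1 library, placed by its log2 CPM minus the mean log2 CPM of day 9 of its genotype, for the 14 genes called in KO (left) and the same genes in WT (right). Grey is day 9, red is day 10 and open diamonds are high-Ddx3y libraries; the KO days do not overlap in any of the 14 genes, and in WT those of Gm48786 do.

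The largest called decrease was in Cxcl2 (ENSMUSG00000058427.10, chr5:90903871-90905938, plus strand), a chemokine that attracts neutrophils through Cxcr2. It stood at 92.2, 44.5 and 39.9 CPM on day 9 and at 18.6, 19.2 and 11.9 CPM on day 10. Every day 10 library lay below every day 9 library, and the high-Ddx3y library of day 9 was the highest. The mean fell from 58.9 ± 29.0 to 16.6 ± 4.06 CPM (mean ± SD, n = 3), a 3.56-fold decrease (log2 fold change -1.83, SE 0.27, adjusted p = 0.0147). Its call was lost without library 64 of day 9 (log2 fold change -1.35, adjusted p = 0.0524), without library 64 of day 10 (-1.92, 0.0741), without library 68 of day 10 (-1.64, 0.140) and when only the 6 libraries were fitted (-1.83, 0.648). Over its 16 alternatives the adjusted p of Cxcl2 ran from 1.73e-08 to 0.648.

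Cxcl1 and Cxcl3, neighbours of Cxcl2 on chromosome 5 that bind the same receptor, did not pass the test. They were named after their values were seen. Cxcl1 stood at 6.88, 1.75 and 2.47 CPM on day 9 and at 0.805, 1.39 and 1.03 CPM on day 10 (log2 fold change -1.78, adjusted p = 0.159). Cxcl3 stood at 119, 31.5 and 47.4 CPM on day 9 and at 13.7, 42.2 and 16.9 CPM on day 10 (log2 fold change -1.45, adjusted p = 0.159). For Cxcl1 the days did not overlap, whereas for Cxcl3 the high-Ddx3y library of day 10 lay above library 67 of day 9. With the high-Ddx3y term both passed, at adjusted p = 0.00993 for Cxcl1 and 0.00151 for Cxcl3. The 3 upstream stretches, from bases 120 to 31 before each RefSeq start (GRCm38.p6), are shown because NF-kB acts at such promoters; capitals mark matches to GGNNTTTCC on either strand, the core of the kappa-B site.
Cxcl2: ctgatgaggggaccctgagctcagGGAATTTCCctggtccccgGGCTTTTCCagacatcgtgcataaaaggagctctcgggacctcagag
Cxcl1: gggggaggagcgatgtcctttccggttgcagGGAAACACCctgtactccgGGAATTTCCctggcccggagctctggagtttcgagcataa
Cxcl3: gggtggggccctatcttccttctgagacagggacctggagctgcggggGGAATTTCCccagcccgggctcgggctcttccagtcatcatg
These lie at chr5:90903779-90903868, chr5:90891125-90891214 and chr5:90785981-90786070, all on the plus strand. Cxcl2 held 2 matches, starting 96 and 77 bases before the start, Cxcl1 held 2, at 89 (reverse strand) and 70, and Cxcl3 held 1, at 72. In the 250 bases before the start, this motif occurred in 1619 of 32851 RefSeq promoters (4.93%), in 674 of the 10521 tested genes that had a promoter entry (6.41%) and in 14 of 32 such genes of the NF-kB list (43.8%). A match is a description of the letters and not evidence of binding in these cells.

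Cxcl2 was the single called member of the NF-kB list of cytokines, chemokines and feedback genes, in which 40 of 43 genes were tested. No member was called higher. The median log2 fold change of the list was -0.46, against 0.0067 over all genes tested, and 35 of 40 members were below 0. In 11 members every day 10 library lay below every day 9 library, against 1067 of all 14535 genes (7.34%). In 0 members the reverse held, against 818 of all genes (5.63%). The mean log2 CPM of the list was 5.16, 4.92 and 4.92 on day 9 and 4.48, 4.56 and 4.32 on day 10, so that all 3 libraries of day 10 lay below those of day 9. Over 16 alternatives the median stayed between -0.52 and -0.33. With the high-Ddx3y term 13 members were called, all lower, against 107 of all 14535 genes (0.736%).

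Among feedback and effector genes of the list, chosen after their values were seen, Sod2, the mitochondrial superoxide dismutase, stood at 153, 122 and 129 CPM on day 9 and at 90.2, 107 and 97.5 CPM on day 10 (log2 fold change -0.45, adjusted p = 0.0731). Tnfaip3, which encodes the NF-kB inhibitor A20, stood at 51.8, 45.0 and 44.7 CPM and then at 36.2, 39.7 and 33.6 CPM (-0.37, adjusted p = 0.0863). Saa3, an acute phase protein, stood at 32.6, 30.1 and 38.1 CPM and then at 12.6, 19.5 and 16.4 CPM (-1.06, adjusted p = 0.0870). None of the 3 passed the test, and in all 3 the days did not overlap. Each passed with the high-Ddx3y term, at adjusted p = 0.0226, 0.0122 and 0.0234.

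For 3 CC chemokines of the list, the high-Ddx3y library of day 10 stood above the other libraries of that day. Ccl2, the main ligand of Ccr2, stood at 724, 458 and 438 CPM on day 9 and at 247, 508 and 175 CPM on day 10 (log2 fold change -0.80, SE 0.27, adjusted p = 0.208). Ccl4, another CC chemokine, stood at 93.5, 62.7 and 54.5 CPM and then at 32.6, 63.5 and 24.3 CPM (-0.81, adjusted p = 0.159). On day 10, library 67 lay within the range of day 9 for both, while libraries 64 and 68 lay below it. Ccl7, a close relative of Ccl2, showed the same order, at 372, 190 and 181 CPM and then 87.2, 233 and 52.0 CPM. These 3 genes were chosen after their values were seen, and with the high-Ddx3y term each passed (adjusted p = 0.0306 for Ccl2, 0.0179 for Ccl4 and 0.0182 for Ccl7).

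Tnf and Il1b, the cytokines of the list best known in dendritic cells, did not pass. Tnf stood at 81.8, 122 and 71.2 CPM on day 9 and at 74.9, 58.5 and 47.5 CPM on day 10 (log2 fold change -0.61, adjusted p = 0.221; 0.118 with the term). Il1b stood at 17, 14.3 and 13.2 CPM and then at 12, 6.29 and 11.3 CPM (-0.58, adjusted p = 0.441). The days overlapped for Tnf and not for Il1b.

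Among genes downstream of ERK, 1 passed the test, as a decrease. Dusp6 (ENSMUSG00000019960.8, chr10:99263231-99267489, plus strand), a phosphatase that switches ERK off and is itself induced by ERK, stood at 118, 94.0 and 104 CPM on day 9 and at 73.7, 85.7 and 68.3 CPM on day 10. The days did not overlap, and the high-Ddx3y libraries were the highest of their days. Dusp6 fell 1.39-fold (log2 fold change -0.47, SE 0.09, adjusted p = 0.0343). It was the single called member of 34 tested genes in the list of immediate early and ERK feedback genes. That list had a median log2 fold change of -0.24, with 27 of 34 members below 0. In 7 members the days did not overlap, all lower, against 7.34% of all genes. The mean log2 CPM of the list overlapped between the days, at 5.16 to 5.55 on day 9 and 4.92 to 5.2 on day 10. Its median ranged from -0.31 to -0.14 over the alternatives. With the high-Ddx3y term 3 members passed, all lower, against 0.736% of all genes.

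The other 2 of these 3, chosen after their values were seen, were Myc and Dusp1. Myc, a transcription factor that drives growth and ribosome production, stood at 66.3, 85.3 and 76.6 CPM on day 9 and at 58.2, 55.0 and 46.3 CPM on day 10 (log2 fold change -0.52, SE 0.12, adjusted p = 0.0902; 0.0354 with the term). Dusp1, a phosphatase of the stress-activated kinases, stood at 70.6, 40.5 and 38.8 CPM and then at 32.4, 29.1 and 24.5 CPM (-0.80, adjusted p = 0.0943; 0.0306 with the term). In both genes all day 10 libraries lay below all day 9 libraries. Dusp1 lies in the opposite direction to Ergic1, whose counts were 299% of those of Dusp1, and the strand setting of the counting is not given in the sources used here. The immediate early genes Egr1 (log2 fold change -1.07, adjusted p = 0.161) and Fos (-0.81, 0.186) were highest in the high-Ddx3y library of day 9, at 276 and 248 CPM, and did not pass.

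Ribosome biogenesis factors gave 4 of the 9 called decreases. These proteins act in the nucleolus on the large ribosomal subunit or on transcription of its RNA. Rrs1 (ENSMUSG00000061024.8, chr1:9545408-9547455, plus strand), needed for assembly of the large subunit, stood at 43.6, 40.9 and 42.4 CPM on day 9 and at 28.2, 34.4 and 28.2 CPM on day 10. It fell 1.4-fold (log2 fold change -0.48, SE 0.09, adjusted p = 0.0375). Gpatch4 (ENSMUSG00000028069.16, chr3:88043108-88055993, plus strand), a nucleolar G-patch protein, stood at 14.8, 12.9 and 12.2 CPM and then at 8.62, 9.24 and 7.64 CPM, a 1.56-fold decrease (-0.64, SE 0.11, adjusted p = 0.0231). In both genes the high-Ddx3y library of day 10 was the highest of its day and still lay below day 9.

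Ebna1bp2 (ENSMUSG00000028729.15, chr4:118620799-118627776, plus strand), another large-subunit assembly factor, stood at 42.2, 42.0 and 41.6 CPM on day 9 and at 31.2, 33.1 and 29.0 CPM on day 10. It fell 1.35-fold (log2 fold change -0.43, SE 0.08, adjusted p = 0.0389), with a spread on day 9 of 0.281 CPM (SD, n = 3). Mybbp1a (ENSMUSG00000040463.16, chr11:72441355-72451768, plus strand), which binds RNA polymerase I and p53, stood at 155, 175 and 155 CPM and then at 119, 135 and 116 CPM, a 1.31-fold decrease (-0.39, SE 0.08, adjusted p = 0.0471). The gene Spns2 on the other strand overlaps its end with counts of 0.752% of its own. Neither gene's days overlapped. Mybbp1a was among the least stable of the 14, called in 7 of 16 alternatives.

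A list of ribosome biogenesis factors was added after these calls were seen, so its counts are not independent of them. Of its 111 tested genes, 108 had a negative log2 fold change, and the median was -0.24. In 67 every day 10 library lay below every day 9 library (0 above), against 7.34% of all genes (5.63% above). The mean log2 CPM of the list was 5.18, 5.25 and 5.19 on day 9 and 5.00, 5.02 and 4.88 on day 10. The 3 libraries of each day lay within 0.14 of each other, and the days did not overlap. Beside the 4 called genes, Wdr43, a factor of the small-subunit processome, stood at 52.0, 56.7 and 53.8 CPM and then at 44.1, 43.0 and 40.6 CPM (-0.35, adjusted p = 0.0585), and Fbl, the methyltransferase of box C/D particles, at 55.1, 60.6 and 56.0 CPM and then at 45.9, 43.3 and 40.8 CPM (-0.40, adjusted p = 0.0902). The high-Ddx3y term gave 24 called members, all lower, Wdr43 and Fbl among them, against 0.736% of all genes. The E-box CACGTG, the site of Myc, occurred in the promoters of 8 of 95 list genes with an entry (8.42%), against 9.75% of tested genes and 6.02% of all promoters.

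The ribosomal proteins themselves did not share this difference in size. Over 78 cytosolic ribosomal protein genes the median log2 fold change was -0.03 (-0.068 without library 64 of day 9, -0.0058 without library 67 of day 10). Of these, 0 were called by edgeR (2 at an unadjusted p under 0.05) and 0 by the DESeq2 Wald test. In 8 the days did not overlap, all lower, against 1067 of all 14535 genes (7.34%). Rps2 and Rpl12, the 2 with the smallest unadjusted p, stood at 759 to 795 CPM on day 9 and 620 to 698 CPM on day 10, and at 336 to 347 CPM and then 285 to 317 CPM (adjusted p = 0.221 and 0.416).

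**Figure D2:**
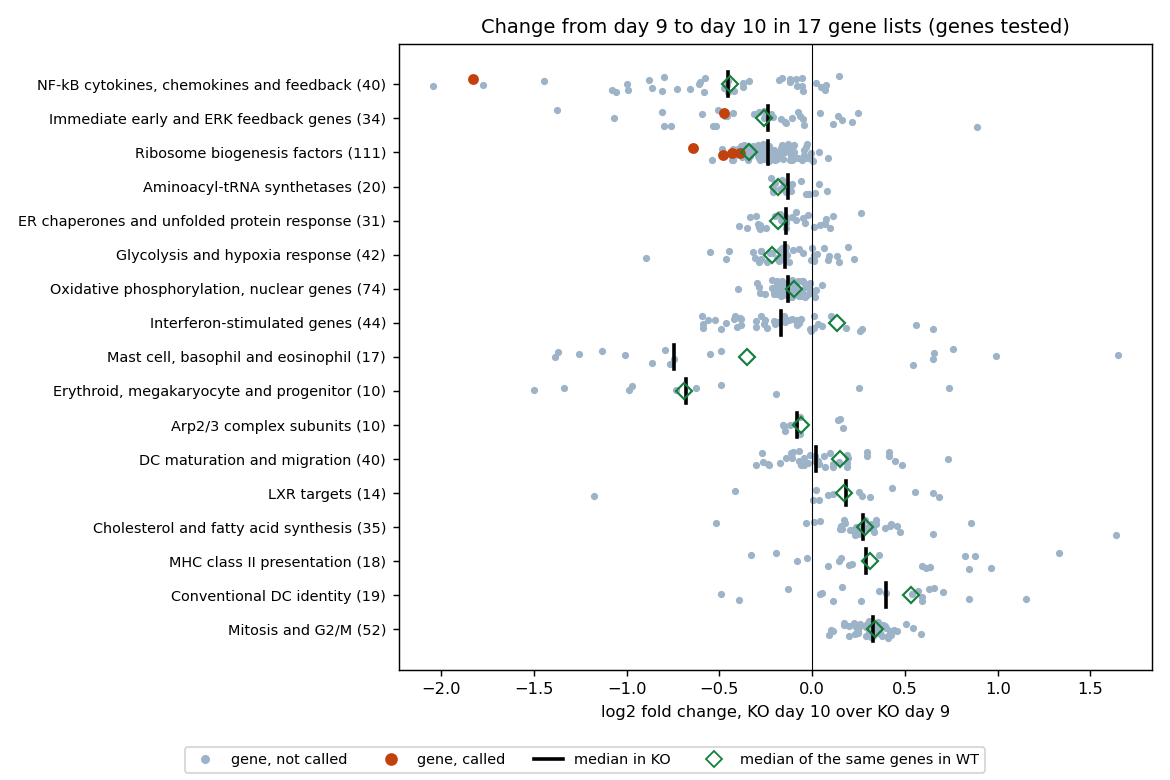
Log2 fold change from KO day 9 to KO day 10 of each tested gene in 17 gene lists (number of genes in brackets), with called genes in red, the list's KO median as a black bar and the WT median of the same genes as a green diamond. The NF-kB list (median -0.46), the immediate early and ERK list (-0.24) and the ribosome biogenesis list (-0.24) hold 6 of the called genes and lie mostly left of 0, and the lists of mitosis, dendritic identity and MHC class II lie mostly right of 0 without a called gene. The ribosome biogenesis list was added after its called genes were seen.

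The other 3 called decreases belong to none of the lists. Nrgn (ENSMUSG00000053310.11, chr9:37544492-37552904, minus strand), which encodes the calmodulin-binding protein neurogranin, stood at 10.9, 5.88 and 9.68 CPM on day 9 and at 2.27, 4.37 and 4.22 CPM on day 10. It fell 2.43-fold (log2 fold change -1.28, SE 0.23, adjusted p = 0.0343), with library 67 of day 9 closest to the day 10 values. Akr1c18 (ENSMUSG00000021214.14, chr13:4132615-4150654, minus strand), an aldo-keto reductase that acts on progesterone, stood at 3.42, 3.81 and 3.00 CPM and then at 1.01, 0.993 and 1.15 CPM. It fell 3.23-fold (-1.69, SE 0.27, adjusted p = 0.0225), with little spread on either day. Gm48786 (ENSMUSG00000112226.1, chr10:51543035-51546848, plus strand), annotated as a processed pseudogene, stood at 1.92, 2.24 and 2.6 CPM and then at 0.865, 0.927 and 0.855 CPM (-1.35, SE 0.24, adjusted p = 0.0343). Its reads may be shared with a near-identical gene, so its value is uncertain; Akr1c18 and Gm48786 fell outside the naming rule and were added because they are the rest of the 14.

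The called increase of largest size was in Cyp1b1 (ENSMUSG00000024087.4, chr17:79701537-79715061, minus strand), a cytochrome P450 that is a classic target of the aryl hydrocarbon receptor (AhR). It stood at 14.4, 12.8 and 14.4 CPM on day 9 and at 28.2, 22.8 and 29.6 CPM on day 10. It rose 1.93-fold (log2 fold change 0.95, SE 0.15, adjusted p = 0.0166), and the high-Ddx3y library was the lowest of day 10. In a list of AhR targets added after this was seen, 9 of 12 genes were tested, Cyp1a2 and Gsta1 were at 0 in all 6 libraries, and the median log2 fold change was 0.13. That median was 0.068 without library 64 of day 10 and 0.23 without library 67 of day 10. Of the 9 genes, 6 were above 0 and 3 below, and the days did not overlap in 2 higher and 1 lower. Over all genes these shares were 5.63% higher and 7.34% lower. Cyp1a1, the other textbook target, was near the limit of detection, at 0.137, 0.524 and 0.234 CPM and then at 0.865, 0.993 and 1.5 CPM. Its days did not overlap, and it did not pass (log2 fold change 1.87, SE 0.45, adjusted p = 0.0947; 0.0420 with the high-Ddx3y term). The stretches from bases 120 to 31 before the start of these 2 genes are shown for the core of the AhR element, GCGTG, whose matches on either strand are in capitals.
Cyp1b1: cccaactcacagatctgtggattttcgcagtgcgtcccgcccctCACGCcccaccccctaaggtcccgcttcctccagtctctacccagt
Cyp1a1: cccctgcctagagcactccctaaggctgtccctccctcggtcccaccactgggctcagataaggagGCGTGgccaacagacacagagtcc
They lie at chr17:79715092-79715181 on the minus strand and at chr9:57697493-57697582 on the plus strand (GRCm38.p6, RefSeq). The match in Cyp1b1 starts 76 bases before the start and is on the reverse strand, and that in Cyp1a1 starts 54 bases before it. So short a motif is common: it occurred in 28.2% of all promoters, in 48.7% of tested genes with an entry, in 6 of 10 called genes with an entry and in 5 of 8 such genes of the AhR list.

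Slc46a3 and Man2a2 act in lysosomal transport and glycan processing. Slc46a3 (ENSMUSG00000029650.10, chr5:147878437-147894815, minus strand), a lysosomal transporter of the folate carrier family, stood at 13.1, 12.9 and 11.6 CPM on day 9 and at 25.1, 19.4 and 20.1 CPM on day 10. It rose 1.71-fold (log2 fold change 0.78, SE 0.12, adjusted p = 0.0166). Man2a2 (ENSMUSG00000038886.10, chr7:80349097-80371375, minus strand), a Golgi mannosidase of N-glycan maturation, stood at 134, 156 and 149 CPM and then at 200, 193 and 219 CPM. It rose 1.40-fold (0.48, SE 0.08, adjusted p = 0.0166) and was the most abundant called gene that rose. The opposite-strand neighbour Hddc3 overlaps Man2a2 with counts of 1.66% of its own. In both genes the gap between the days exceeded the range within either day.

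Ypel3 (ENSMUSG00000042675.15, chr7:126776955-126780514, plus strand), a small nuclear protein linked to growth arrest, stood at 38.5, 38.2 and 43.8 CPM on day 9 and at 59.9, 51.2 and 78.6 CPM on day 10. It rose 1.57-fold (log2 fold change 0.65, SE 0.13, adjusted p = 0.0471) and had the widest spread on day 10 of the 5 increases in proportion to its mean (63.2 ± 14 CPM, SD, n = 3). Fbxl20 (ENSMUSG00000020883.18, chr11:98082556-98150403, minus strand), an F-box subunit of a ubiquitin ligase, stood at 52.2, 52.9 and 51.3 CPM and then at 69.9, 60.9 and 72.2 CPM, a 1.30-fold rise (0.38, SE 0.07, adjusted p = 0.0375). In both genes the high-Ddx3y library was the lowest of day 10.

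The next genes in rank on the higher side missed the threshold by little. Pik3ip1, an inhibitor of phosphoinositide 3-kinase, stood at 2.40, 2.74 and 3.87 CPM on day 9 and at 6.02, 4.24 and 8.32 CPM on day 10 (log2 fold change 1.05, adjusted p = 0.0545). Tcp11l2 stood at 11.6, 10.8 and 12.8 CPM and then at 17.5, 16.1 and 21.6 CPM (0.65, adjusted p = 0.0545). Lpin1, a phosphatidate phosphatase of lipid synthesis, stood at 42.7, 50.7 and 49.5 CPM and then at 63.6, 58.3 and 75.2 CPM (0.46, adjusted p = 0.0585). In these 3 genes the days did not overlap and library 67 was the lowest of day 10. On the lower side Ralgds, an exchange factor of the Ras effector route, stood at 140, 148 and 120 CPM and then at 86.1, 110 and 85.9 CPM (-0.53, adjusted p = 0.0545), again without overlap. All 4 passed with the high-Ddx3y term, at adjusted p = 0.0104, 0.0164, 0.0148 and 0.0100.

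Lists of protein folding and of energy metabolism had small negative medians and 0 members called by edgeR. Of 31 genes for chaperones of the endoplasmic reticulum and the unfolded protein response, 23 were below 0, and the median log2 fold change was -0.14 (13 at an unadjusted p under 0.05, 6 called by the DESeq2 Wald test). The days did not overlap in 10, all lower, against 7.34% of all genes. Hspa5, the chaperone BiP, stood at 995, 890 and 889 CPM on day 9 and at 756, 784 and 660 CPM on day 10 (-0.33, SE 0.09, adjusted p = 0.122). Calr, which encodes calreticulin, stood at 1497, 1294 and 1329 CPM and then at 1020, 1246 and 967 CPM (-0.35, adjusted p = 0.146). All day 10 libraries of both genes lay below day 9, and both passed with the high-Ddx3y term (adjusted p = 0.0386 and 0.0377). Hspd1, a mitochondrial chaperone of the heat shock list, stood at 236, 241 and 248 CPM and then at 185, 203 and 171 CPM (-0.38, adjusted p = 0.0861).

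Of 74 nuclear genes of oxidative phosphorylation, 70 were below 0, with a median of -0.13 (17 at an unadjusted p under 0.05, 0 called by the Wald test). In 15 of them the days did not overlap, all lower, against 7.34% of all genes. The median was -0.20 without library 67 of day 10 and -0.075 without library 64 of day 10. Cyc1, a subunit of respiratory complex III, stood at 95.8, 97.0 and 93.7 CPM on day 9 and at 78.9, 85.2 and 82.2 CPM on day 10 (log2 fold change -0.22, adjusted p = 0.217). Of 42 genes of glycolysis and the hypoxia response, 31 were below 0 and the median was -0.15 (10 at an unadjusted p under 0.05, 2 called by the Wald test). The glycolytic enzyme Eno1 stood at 1075, 994 and 1069 CPM and then at 811, 889 and 867 CPM (-0.29, adjusted p = 0.122). Neither Cyc1 nor Eno1 passed with the high-Ddx3y term (adjusted p = 0.155 and 0.0556), and the days of neither overlapped. That term gave 2 called members of the glycolysis list, both lower, against 0.736% of all genes. Among them was Tpi1, the triosephosphate isomerase, at 344, 319 and 364 CPM and then at 267, 273 and 283 CPM (log2 fold change -0.32, adjusted p = 0.112, and 0.0466 with the term). The 13 mitochondrially encoded transcripts had a median of 0.23 in KO and of -0.14 in WT, and mt-Co1 stood at 10098, 7441 and 8935 CPM and then at 10165, 11544 and 10628 CPM (0.29, adjusted p = 0.420).

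Markers of rare leukocytes are given as values, and their part in the other results was not tested. In bulk RNA, fewer cells of a type and less RNA per cell cannot be told apart. Of 20 markers of mast cells, basophils and eosinophils, 17 were tested, and Mcpt4 and Tpsab1 were at 0 in all 6 libraries. The 17 tested markers summed to 258 to 334 CPM on day 9 and 197 to 299 CPM on day 10. The median log2 fold change was -0.75, and -0.37 on TPM values, with 6 members above 0 and 11 below, 0 called by edgeR (11 at an unadjusted p under 0.05) and 3 by the Wald test. Prss34, a basophil protease, stood at 67.0, 79.6 and 77.8 CPM and then at 34.5, 21.3 and 37.9 CPM (log2 fold change -1.26, SE 0.29, adjusted p = 0.0902). Mcpt8, the basophil marker protease, stood at 35.4, 43.7 and 40.3 CPM and then at 17.8, 9.93 and 18.4 CPM (-1.37, adjusted p = 0.122). Both were lower in every day 10 library, and lowest in the high-Ddx3y one.

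Among eosinophil genes of the same list, none passed the test. Epx, the eosinophil peroxidase, stood at 18.7, 23.6 and 30.3 CPM on day 9 and at 51.2, 36.3 and 57.1 CPM on day 10 (log2 fold change 0.99, SE 0.31, adjusted p = 0.181). Ear1, an eosinophil ribonuclease, stood at 0.342, 0.786 and 1.44 CPM and then at 2.71, 2.65 and 2.71 CPM (1.65, adjusted p = 0.102), but belongs to a family of near-identical genes, so its count is uncertain. For both genes the days did not overlap. After these values were seen the list was divided: 8 basophil and mast cell genes summed to 162, 202 and 187 CPM on day 9 and to 99.7, 62.4 and 96.2 CPM on day 10, and 7 eosinophil genes summed to 78.9, 98.2 and 123 CPM and then to 177, 120 and 188 CPM. The days did not overlap for the first sum and overlapped for the second. With the high-Ddx3y term 5 members were called lower (Prss34, Mcpt8, Fcer1a, Ms4a2 and Cpa3) and 3 higher (Ear1, Siglecf and Epx). Over all genes that term called 0.736% lower and 0.66% higher.

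Of 16 markers of erythroid cells, megakaryocytes and progenitors, 10 were tested and Car1 was at 0 in all 6 libraries. Their median log2 fold change was -0.68, with 0 called by edgeR (4 at an unadjusted p under 0.05) and 3 by the Wald test, which called 207 of all 14535 genes. The 10 tested markers summed to 283 to 611 CPM on day 9 and 196 to 423 CPM on day 10. Itga2b, an integrin of megakaryocytes and early progenitors, stood at 18.7, 20.0 and 24.2 CPM and then at 13.3, 11.8 and 15.7 CPM (log2 fold change -0.62, adjusted p = 0.0947; 0.0126 with the term). Gata1, the factor of the erythroid, megakaryocyte and mast cell lineages, stood at 1.99, 1.69 and 1.77 CPM and then at 0.656, 1.03 and 1.09 CPM (-0.97, adjusted p = 0.0692; 0.0294 with the term). The days did not overlap for either gene. Ly6g, a neutrophil surface protein, went the other way, at 5.00, 3.52 and 5.11 CPM and then at 7.57, 10.2 and 13.7 CPM (1.21, adjusted p = 0.122; 0.0263 with the term). Mpo, of the same neutrophil list, stood at 79.2, 176 and 174 CPM and then at 81.0, 37.4 and 128 CPM (-0.80, adjusted p = 0.457; 0.0323 with the term), with overlap. Of the 20 neutrophil markers 11 were above 0 and 9 below. Their median was 0.02 (-0.16 without library 68 of day 10, 0.14 without library 67 of day 10).

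Dendritic cell identity and antigen presentation differed more between libraries of 1 day than between the days. Over 19 tested genes of conventional dendritic cell identity the mean log2 CPM was 4.33, 5.37 and 4.86 on day 9 and 5.58, 4.81 and 5.30 on day 10. The lowest library of each day was the high-Ddx3y one. The median log2 fold change was 0.40, with a range of 0.19 to 0.73 over the alternatives. In 0 of these genes did the days separate, against 5.63% (higher) and 7.34% (lower) of all genes. For 18 genes of MHC class II presentation the means were 6.17, 6.99 and 6.59 and then 7.35, 6.58 and 7.04, with a median of 0.29 (0.13 without library 64 of day 10, 0.53 without library 67 of day 9). H2-Ob, a chain of the peptide-loading regulator H2-O, stood at 5.48, 19.1 and 8.91 CPM and then at 47.7, 11.1 and 25.7 CPM (log2 fold change 1.33, SE 0.49, adjusted p = 0.258), and the days overlapped. With the high-Ddx3y term H2-Ob was the single called member of the list (adjusted p = 0.0262), against 0.66% of all genes called higher. H2-Aa, the class II alpha chain, named after its values were seen, spread from 288 to 850 CPM on day 9 and from 447 to 1235 CPM on day 10 (0.59, adjusted p = 0.517).

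As a list, macrophage markers ran opposite to these across the same libraries. Over 21 tested genes their mean log2 CPM was 6.44, 5.92 and 6.22 on day 9 and 5.70, 6.33 and 6.09 on day 10, highest in the high-Ddx3y library of each day. The median log2 fold change was -0.13 and went from -0.38 without library 67 of day 10 to -0.0095 without library 64 of day 9. Cd14, the co-receptor for lipopolysaccharide, stood at 78.6, 58.1 and 58.0 CPM and then at 49.7, 46.5 and 48.8 CPM (log2 fold change -0.43, adjusted p = 0.159), and Fcgr1, the high-affinity IgG receptor, at 121, 124 and 110 CPM and then at 110, 102 and 83.3 CPM (-0.26, adjusted p = 0.238). Neither gene followed the list mean in being highest in the high-Ddx3y library of each day. The 40 genes of dendritic cell maturation and migration had a median of 0.02, and 1 had separate days (lower, against 7.34% of all genes). That median was -0.12 without library 64 of day 10 and 0.21 without library 67 of day 9.

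Cell cycle genes showed how far single libraries decided a list's value. All 52 tested genes of mitosis and G2/M had a positive log2 fold change, with a median of 0.33, yet 0 were called by edgeR (1 at an unadjusted p under 0.05) or the Wald test. In 0 of them did the days separate, against 5.63% (higher) and 7.34% (lower) of all genes. The mean log2 CPM was 4.29, 5.37 and 5.09 on day 9 and 5.76, 4.50 and 5.39 on day 10. Both high-Ddx3y libraries were the lowest of their days. The median was 0.014 without library 64 of day 10 and 0.60 without library 67 of day 10. Cenpa, the centromeric histone H3 variant, stood at 42.3, 61.9 and 57.0 CPM and then at 76.2, 50.1 and 70.4 CPM (0.29, adjusted p = 0.352). The 48 genes of DNA replication had a median of 0.09, which was -0.09 without library 64 of day 9 and 0.28 without library 67 of day 10.

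**Figure D3:**
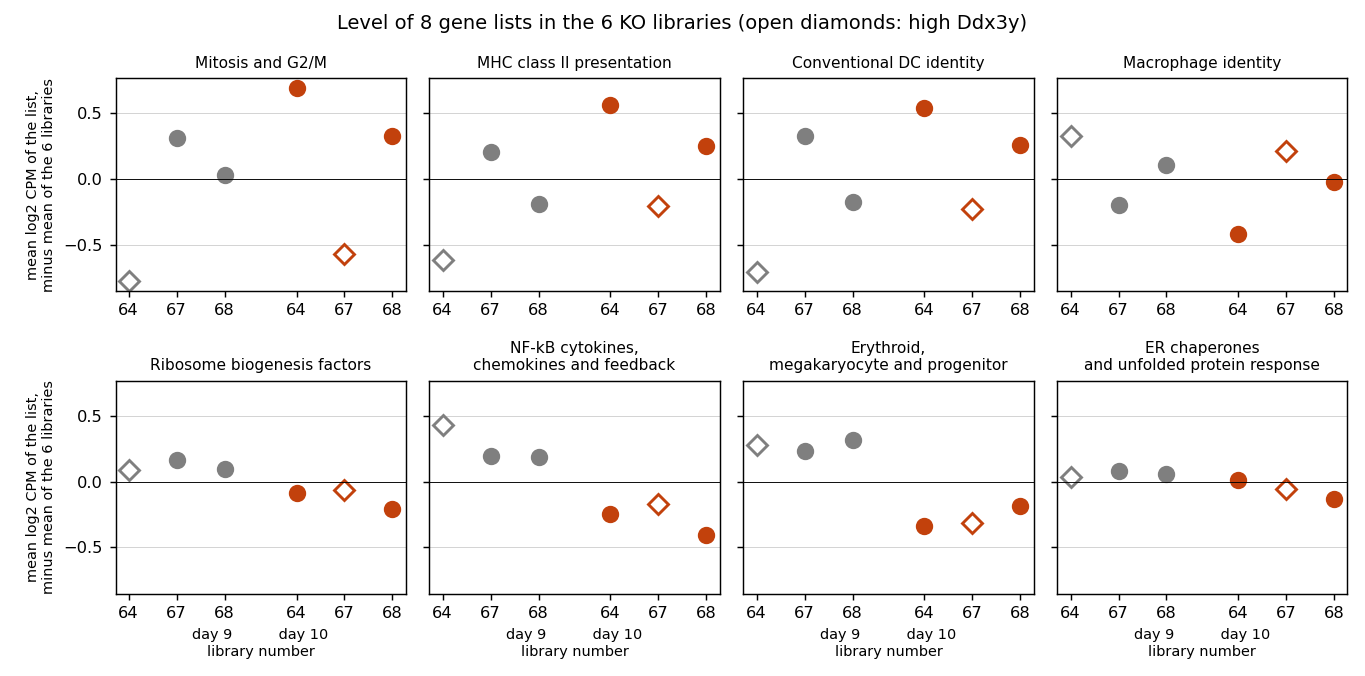
Mean log2 CPM of 8 gene lists in each of the 6 KO libraries, centred on the mean of the 6, with day 9 in grey, day 10 in red and high-Ddx3y libraries as open diamonds. In the upper row the high-Ddx3y libraries stand at the same end of both days, as for mitosis (4.29 and 4.50 on a log2 CPM scale before centring), and in the lower row all day 10 libraries lie below all day 9 libraries.

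Over all 42 lists, the mean log2 CPM of the 3 day 10 libraries lay apart from that of day 9 in 7 and overlapped it in 35. The 7 were the AhR list, which was higher, and 6 that were lower, namely NF-kB genes, ribosome biogenesis factors, endoplasmic reticulum chaperones, erythroid and megakaryocyte markers, C-type lectins with pattern receptors, and subunits of the Arp2/3 complex. Members were called by edgeR in 4 lists, and of the 38 lists with 0 called, 13 had a call by the DESeq2 Wald test. The AhR and ribosome biogenesis lists are in both counts and were added after calls among their members were seen. Their separation and their called members are therefore not independent of those calls. In 28 lists both high-Ddx3y libraries stood at the same end of their day. For the 10 Arp2/3 subunits the difference was small, with a median log2 fold change of -0.08, 0 genes called by edgeR (1 at an unadjusted p under 0.05) and 0 by the DESeq2 Wald test. Without overlap, 3 subunits were lower on day 10 (Arpc4, Actr2 and Arpc3), against 7.34% of all genes. In the same way 1 was higher, against 5.63% of all genes, namely Arpc1a (58.9, 64.3 and 65.2 CPM and then 67.7, 67.3 and 72.3 CPM, log2 fold change 0.14, adjusted p = 0.455). The 41 tested genes of actin nucleation and contractility had a median of -0.02 (-0.032 without library 68 of day 9, 0.018 without library 64 of day 10).

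Among sterol synthesis genes 0 were called by edgeR (16 at an unadjusted p under 0.05) or the DESeq2 Wald test. With the high-Ddx3y term 1 was called, higher on day 10, against 0.66% of all genes. Of 35 tested genes of cholesterol and fatty acid synthesis, 33 were above 0, and the median log2 fold change was 0.27 (0.13 to 0.39 over the alternatives). In 4 the days did not overlap, all higher, against 818 of all 14535 genes (5.63%). The mean log2 CPM of the list overlapped, at 5.25 to 5.83 on day 9 and 5.61 to 6.12 on day 10. Scd1, the stearoyl-CoA desaturase, ranged widely, at 6.44, 30.9 and 25.4 CPM on day 9 and at 98, 18 and 79.7 CPM on day 10 (1.64, SE 0.48, adjusted p = 0.159). Sc5d, an enzyme of late sterol synthesis, stood at 40.4, 47.7 and 49.5 CPM and then at 65.3, 48.9 and 60.1 CPM (0.34, adjusted p = 0.161). In both, library 67 of day 10 lay within the range of day 9. Among 14 targets of the liver X receptor the median was 0.18 (0.060 without library 67 of day 10), and Abcg1, a cholesterol exporter, stood at 428, 401 and 454 CPM and then at 467, 533 and 592 CPM (0.31, adjusted p = 0.169) without overlap.

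Interferon-stimulated genes had medians of opposite sign in the genotypes. In KO the median over 44 tested genes was -0.17, with 34 below 0, and in WT it was 0.13. The KO median lay between -0.35 and 0.0034 over the alternatives, and the mean log2 CPM of the days overlapped. Gbp3, an interferon-induced GTPase, stood at 18.3, 25.8 and 24.8 CPM and then at 46.4, 25.4 and 36.4 CPM (log2 fold change 0.65, adjusted p = 0.0944; 0.0136 with the term), whereas Oas1a, an oligoadenylate synthetase, stood at 71.1, 85.4 and 68.9 CPM and then at 66.1, 53.3 and 49.4 CPM (-0.42, adjusted p = 0.161). Of the lists not described so far, the amino acid response around Atf4 had a median of -0.18 over 34 genes, tRNA synthetases -0.13 over 20, and NRF2 targets -0.16 over 27. Over the alternatives these medians ran from -0.25 (without both high-Ddx3y libraries) to -0.10 (without library 67 of day 9), from -0.17 to -0.087 (without the same libraries), and from -0.27 (without library 67 of day 10) to -0.056 (without library 64 of day 9). In these 3 lists edgeR called 0 members, with 10, 8 and 6 at an unadjusted p under 0.05, and the DESeq2 Wald test called 1 NRF2 target. With the high-Ddx3y term 1 member each of the amino acid and NRF2 lists was called lower, against 0.736% of all genes.

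WT cells went through a similar last day, with more genes past the threshold. Between WT day 9 and day 10, 523 genes were called (3.6%), 171 higher (1.18%) and 352 lower (2.42%). The WT count also depended on single libraries: it was 67 without library 63 of day 10, 127 without library 65 of day 9, 223 without library 63 of day 9, 246 without library 66 of day 9, 314 without library 65 of day 10 and 533 without library 66 of day 10. All 14 genes called in KO had the same direction in WT, and 13 of them were called there too. Of the 523 WT calls, 521 (99.6%) had the same direction in KO, against 76.1% of all 14535 genes, and 425 had an unadjusted p under 0.05 in KO. The median absolute log2 fold change of these 523 genes was 0.43 in WT, where they were chosen, and 0.29 in KO. Across all genes tested the log2 fold changes of the genotypes had r = 0.570, a description across genes that are not independent replicates; the genotypes share no library but share the culture days. Days separated without overlap in 1885 genes in KO, in 3770 in WT and in 822 in both, of which 811 had the same direction.

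**Figure D4:**
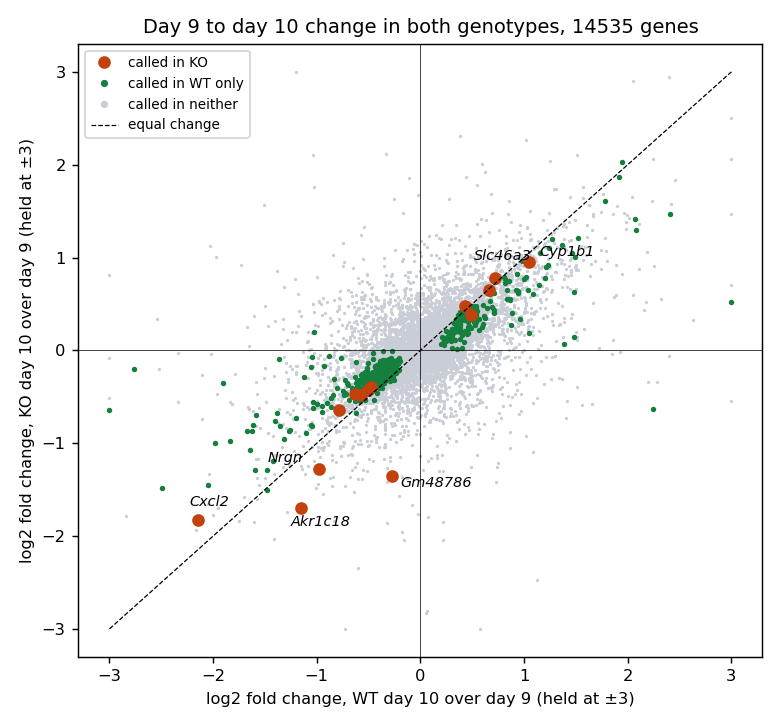
Log2 fold change from day 9 to day 10 of each of the 14535 tested genes in KO (vertical) against WT (horizontal), held at ±3, with genes called in KO in red and genes called in WT only in green. Of the 523 WT calls, 521 lie in the 2 quadrants of equal sign, and Gm48786 is the red point nearest to 0 in WT.

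The size of the change was not shown to differ between genotypes for any gene. The test of the difference (KO change minus WT change) called 0 of 14535 genes by edgeR, with 177 at an unadjusted p under 0.05, and 0 by the DESeq2 Wald test, with 144. For Cxcl2 the WT libraries stood at 33.3, 36.2 and 36.0 CPM on day 9 and at 9.18, 8.51 and 6.09 CPM on day 10 (log2 fold change -2.15, adjusted p = 0.00219), and the difference was 0.32 (SE 0.38, unadjusted p = 0.408). For Cyp1b1 it was -0.09 (SE 0.22), for Man2a2 0.05 (SE 0.11) and for Rrs1 0.09 (SE 0.13). Gm48786 was the 1 KO call that did not pass in WT, at 1.01, 1.21 and 1.86 CPM and then 1.28, 0.980 and 1.13 CPM (-0.27, adjusted p = 0.628), and its difference of -1.08 (SE 0.35, unadjusted p = 0.00608) did not pass after adjustment over all genes.

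Of the 6 genes picked by their unadjusted p for this difference, 3 in each direction, 3 are given as values that did not pass. The non-coding transcript Mir17hg, host of a miRNA cluster, stood at 1.51, 2.27 and 1.87 CPM on KO day 9 and at 2.03, 2.68 and 1.80 CPM on KO day 10 (log2 fold change 0.20), and fell in WT by 1.02 (adjusted p = 0.0412; difference 1.22, unadjusted p = 0.00452). Snhg12, a host gene of small nucleolar RNAs, had a KO change of -0.08 and fell in WT by 0.76 (difference 0.69, unadjusted p = 0.00364). Dnajc28 had a KO change of 0.28 and rose in WT by 0.88 (difference -0.60, unadjusted p = 0.0165). In KO the days overlapped for all 3. Plcb4 and Itgad, known from earlier results of these data to differ between the genotypes, had KO changes of 0.35 (5.75, 6.58 and 8.18 CPM and then 9.66, 7.02 and 9.50 CPM, adjusted p = 0.464) and 0.86 (1.78, 1.80 and 1.40 CPM and then 3.22, 2.68 and 3.18 CPM, adjusted p = 0.294). The count of Itgad is uncertain, since Cox6a2 on the other strand overlaps it with 30.2% of its counts.

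Set beside the earlier days of the KO culture, several of the called genes turned back towards their day 7 level. The comparison of KO day 9 with day 8 called 338 genes (2.33%) and shares the 3 day 9 libraries with the comparison of day 10 with day 9, so the values are only given side by side. Slc46a3 had KO means of 34.6, 10.7, 12.6 and 21.5 CPM on days 7, 8, 9 and 10, Ypel3 of 133, 30.3, 40.2 and 63.2 CPM, and Man2a2 of 238, 98.6, 146 and 204 CPM. Each was highest on day 7 and lowest on day 8. Man2a2 also rose from day 8 to day 9 (log2 fold change 0.57, adjusted p = 0.000687). Cyp1b1 differed from these, with means of 10.1, 10.0, 13.9 and 26.8 CPM.

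Among the decreases, Rrs1 had means of 24.6, 53, 42.3 and 30.3 CPM over the 4 days, Mybbp1a of 100, 174, 161 and 123 CPM, and Cxcl2 of 58.6, 97.9, 58.9 and 16.6 CPM. All 3 were highest on day 8, and Cxcl2 alone of these ended below its day 7 mean. Nrgn had means of 21.7, 16.2, 8.80 and 3.62 CPM and fell from day 8 to day 9 as well (log2 fold change -0.88, adjusted p = 0.0427). Akr1c18 was at 0.0990 CPM on day 7, reached 3.72 CPM on day 8 and was at 3.41 and 1.05 CPM on days 9 and 10. The ribosome biogenesis list had medians of 0.58, -0.12 and -0.24 for the steps to day 8, day 9 and day 10, and the NF-kB list of 0.60, -0.32 and -0.46.

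**Figure D5:**
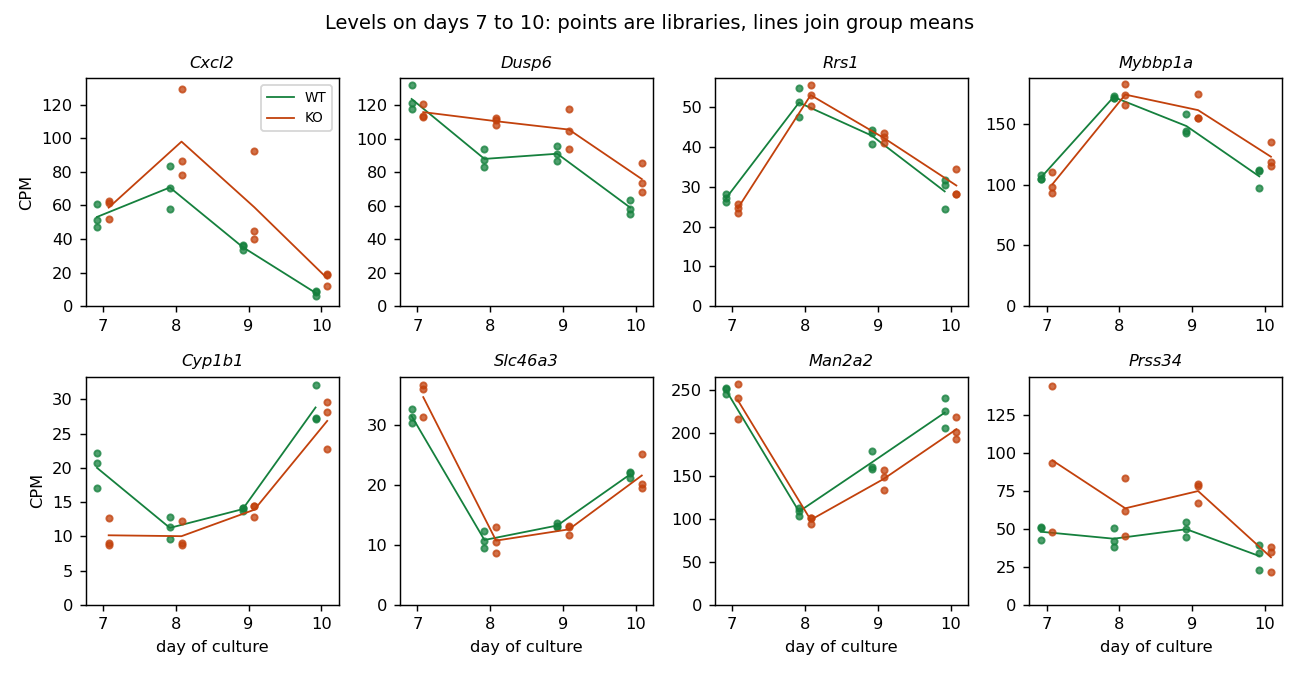
CPM of 8 genes on days 7 to 10 in WT (green) and KO (red), with 1 point per library and lines through group means. Slc46a3 and Man2a2 dip on day 8 and then climb, Rrs1 and Mybbp1a peak on day 8, and Cxcl2 ends at a KO mean of 16.6 CPM on day 10; Prss34 is shown as a basophil marker that was not called.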

How the data were processed

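Poly(A) RNA of 24 libraries (2 genotypes, 4 days, 3 per group) was sequenced in pairs on a NovaSeq instrument, per the labels' protocols. The authors deposited a table of raw read counts per gene and a table of TPM values. FastQC 0.11.9, STAR 2.6.1, DESeq2 1.22.2 and the build mm10 are named, without their roles, in the submitters' processing notes; the counting program, its strand setting and the annotation are not given in the sources used here. Gene identifiers matched GENCODE M21 with the same version for 55094 of 55487, and loci are from that annotation (GRCm38). Promoters are from RefSeq (GRCm38.p6).

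Deposited counts were analysed as they stand in R 4.3.3 with edgeR 4.0.16 (filterByExpr, TMM, glmQLFit and glmQLFTest; 1 coefficient per genotype and day, no covariate, 16 residual degrees of freedom), adjusted by Benjamini-Hochberg over 14535 genes. CPM uses TMM library sizes, and SE is the log2 fold change divided by the square root of F. The procedure was tested on simulated data. Alternatives were DESeq2 1.42.0, limma 3.58.1 on log2(TPM + 1), other filters, other covariates, fewer libraries and leaving out each library. Precision is set by 3 libraries per group at 28210108 to 31049798 counts each in KO.

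Named genes were Arpc4, up to 12 called genes per direction by size (mean log2 CPM above 1, a proper symbol, days not overlapping, filled up to 8 by p), the 5 most abundant called per direction, up to 4 called or 2 uncalled members per list, 3 per direction for the genotype difference, and Plcb4 and Itgad; other genes were named after their values were seen. Members, lists and rule were chosen with earlier results of these data known. Libraries of the same mouse number were not paired.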

Additional observations from a re-analysis of the deposited data

How the results depend on the processing

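The 14 genes called in KO kept their sign in all alternatives, while counts of calls varied widely. The median of 25 gene lists kept its sign in all alternatives and that of 17 did not, and of the list medians under each alternative 24 moved by more than the spread between libraries and 648 did not. The KO count of 14 became 207 with the DESeq2 Wald test (80 higher, 127 lower), 49 without a filter on low counts, 27 with Xist as a covariate, 62 without the 2 high-Ddx3y KO libraries, 203 with the high-Ddx3y term (added after seeing the data), 4 when a log2 fold change of 1 or more in either direction was also required, and 0 when edgeR used only the 6 libraries compared, with 1001 genes at an unadjusted p under 0.05. It was 14 with DESeq2 size factors, 13 on log2(TPM + 1) (9 shared) and 10 among genes with a mean of at least 50 counts. Leaving out 1 library gave 0 (without library 64 of day 9, library 64 of day 10 or library 68 of day 10) to 470 (without library 67 of day 10). The WT count of 523 became 819 with the Wald test, 828 with only the 6 WT libraries, 1081 with the high-Ddx3y term, 62 with the fold limit, and 67 (without library 63 of day 10) to 533 (without library 66 of day 10) when 1 library was left out. The causes were not tested. The genotype difference gave 0 calls by edgeR, DESeq2 and limma in every alternative, with 87 to 399 genes at an unadjusted p under 0.05.

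With the mouse number as a replicate block, the KO count was 16 (10 shared with the 14) and the WT count 424 (377 shared). In KO, deviations of same-numbered libraries correlated at -0.753, -0.796 and 0.567 across 11111 genes, those of the 2 high-Ddx3y libraries (64 of day 9, 67 of day 10) at 0.866, and those of 67 of day 9 with 64 of day 10 at 0.820; whether labels or libraries were exchanged was not tested, and no pairing was drawn from it; in WT the same-numbered correlations were 0.510, 0.562 and 0.149. Genes near 1 CPM, such as Cyp1a1, rest on few counts.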

Other observations

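Some genes outside the lists passed with the high-Ddx3y term, which was itself added once the data had been seen. Those given here were chosen after their values were seen, because they passed with that term. None of them was among the 14 genes called without it, so they are given as values only. Slc7a8, an exchanger of neutral amino acids, stood at 271, 199 and 197 CPM on day 9 and at 121, 203 and 133 CPM on day 10 (log2 fold change with the term -0.56, adjusted p = 0.00538). Dab2, an endocytic adaptor, stood at 493, 441 and 435 CPM and then at 308, 426 and 310 CPM (-0.40, adjusted p = 0.00993). In both, the high-Ddx3y library of day 10 was the highest of its day, within the day 9 range for Slc7a8 and just below it for Dab2. Among the increases, Adra2a, an adrenergic receptor, stood at 6.27, 15.2 and 9.31 CPM and then at 34.4, 13.6 and 23 CPM (1.19, adjusted p = 0.0182), and Vipr1, a receptor for vasoactive intestinal peptide, at 2.40, 5.99 and 4.84 CPM and then at 11.7, 4.44 and 8.91 CPM (0.91, adjusted p = 0.0148). For these 2 genes the high-Ddx3y library was the lowest of each day and the days overlapped.

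Of the 523 genes called in WT, 2 had the opposite sign in KO, Mir17hg and Tfap2a, and their differences between genotypes did not pass after adjustment.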
